A study of Mus musculus with 6 samples.

Results

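The genes examined here handle fatty acids in skeletal muscle. They are the rows of the deposited count table whose symbols belong to a list of 50 genes that take up fatty acids, activate them, carry them into mitochondria, oxidize them or store them as triglyceride. All 50 genes had a row among the 24411 genes of the table, and all 50 passed the filter on low counts that left 12892 genes for the test. The list follows function, and its rule uses no expression value, but it was chosen with earlier results of these data known.

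The RNA came from the extensor digitorum longus (EDL), a fast-twitch muscle of the hindlimb, of mice on the C57BL/6J strain, 50 weeks old. In the 3 mAktDKO mice, Akt1 and Akt2, the kinases downstream of the insulin receptor, were deleted in skeletal muscle by a Cre recombinase knocked in at the myosin light-chain gene Mlc1f. The 3 control mice carried the floxed Akt1 and Akt2 alleles too. This locus drives Cre in muscle fibres, those of fast-twitch type above all, so the deletion was not aimed at the other cells of the muscle. The comparison asks how transcripts of fatty acid handling differ in aged muscle whose fibres were targeted for deletion of Akt1 and Akt2. The control mice carry the numbers 2 to 4 in the table and are called control 2, 3 and 4. Separate mice are replicates here, and p-values measure the spread between them.

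Long-chain fatty acids reach muscle fibres from circulating triglyceride, which is cleaved at the vessel wall, and are carried across the membrane and bound in the cytosol. They are then joined to coenzyme A, exchanged onto carnitine to cross the inner mitochondrial membrane, and shortened by rounds of beta-oxidation that deliver electrons to the respiratory chain. What is not burned is esterified and kept in lipid droplets, and malonyl-CoA, made by acetyl-CoA carboxylase, restrains the entry into mitochondria.

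Total counts were 13738795 to 15445523 per mouse, and a gene at 3 counts, the smallest level the depth can show, lay at 0.194 to 0.218 CPM (counts scaled to a common library total). CPM values below use totals scaled between mice by the TMM method. Akt2 was at 51.3, 49.1 and 52.7 CPM in the mAktDKO mice and at 172, 133 and 143 CPM in the control group. The log2 fold change, given here and below with its standard error, was -1.55 ± 0.11 with an adjusted p of 0.000923. Akt1 was at 58.9, 56.8 and 51.4 CPM against 66.4, 65.5 and 66.5 CPM, a log2 fold change of -0.25 ± 0.08 with an adjusted p of 0.115. The groups did not overlap in either gene. The 10 markers of fast skeletal muscle were abundant in every mouse, with sums of 131300 to 146100 CPM in the mAktDKO group and 150500 to 161300 CPM in the control group and 10 of 10 lower in mean. Their median log2 fold change was -0.21. Of the 10, 6 (60%) were lower without overlap, beside 16.6% of all tested genes. At an unadjusted p under 0.05 in edgeR, 3 (30%) were lower, beside 13.1% of all tested genes. The alternative test, DESeq2, called 3 of them lower at an adjusted p under 0.01, beside 2.61% of the 9616 genes for which it gave an adjusted p. The part of this difference in the results below was not tested. In this bulk RNA, fewer cells of a type and less RNA per cell cannot be told apart.

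Most genes of fatty acid handling were lower in mAktDKO muscle, by small amounts, and the beta-oxidation enzymes were lower almost throughout. Of the 50 genes, 36 were lower and 14 higher, and their median log2 fold change was -0.18, where the median over all 12892 tested genes was 0.017 and 47.5% of them were lower. At the threshold of an adjusted p under 0.01 (quasi-likelihood test of edgeR, adjusted by Benjamini-Hochberg over all tested genes), none of the 50 was called, and 3 genes of the whole table were (0.0233%). At an adjusted p under 0.05, the only gene called among the 50 was Etfb, which was lower, against 1.18% of all genes called in both directions and 0.915% called lower. At an unadjusted p under 0.05, 14 of the 50 were lower (28%) and 5 higher (10%), beside 13.1% and 11.4% of all genes. Under scaling by library totals these counts were 8 lower and 12 higher, and with a mouse left out the lower count ran from 9 (without mAktDKO 2) to 22 (without control 4) and the higher count from 1 (without mAktDKO 2) to 6 (without mAktDKO 3). The count over the whole table, in both directions, moved too. It was 3164 of 12892 genes in the main fit and 3616 of 12892 under library totals. With a mouse left out it was 1871 of 13034 (without mAktDKO 2), 2794 of 13151 (without mAktDKO 3) and 3386 of 13127 (without control 4). In 12 of the 50 (24%) all 3 mAktDKO mice lay below all 3 control mice and in 4 (8%) above them, beside 16.6% and 14.6% of all genes. DESeq2, run as an alternative, called 7 of the 50 at an adjusted p under 0.01, and gave no adjusted p for 2 of the 50, Angptl4 and Acot1. The 7 are named next. These were Etfb, Acadvl, Acsl6, Slc25a20, Plin4 and Plin5, which were lower, and Lpl, which was higher, beside 2.61% of the 9616 genes for which DESeq2 gave an adjusted p called lower and 0.936% called higher. Under scaling by library totals the median of all genes moved to 0.16 and that of the 50 genes to -0.041, with 30 of them lower. The distance between these medians was -0.20 under either scaling. A change of scaling shifts all genes by nearly the same amount, so this distance could hardly move and is no separate check. Without control 2 the median of the 50 genes was -0.079.

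**Figure D1:**
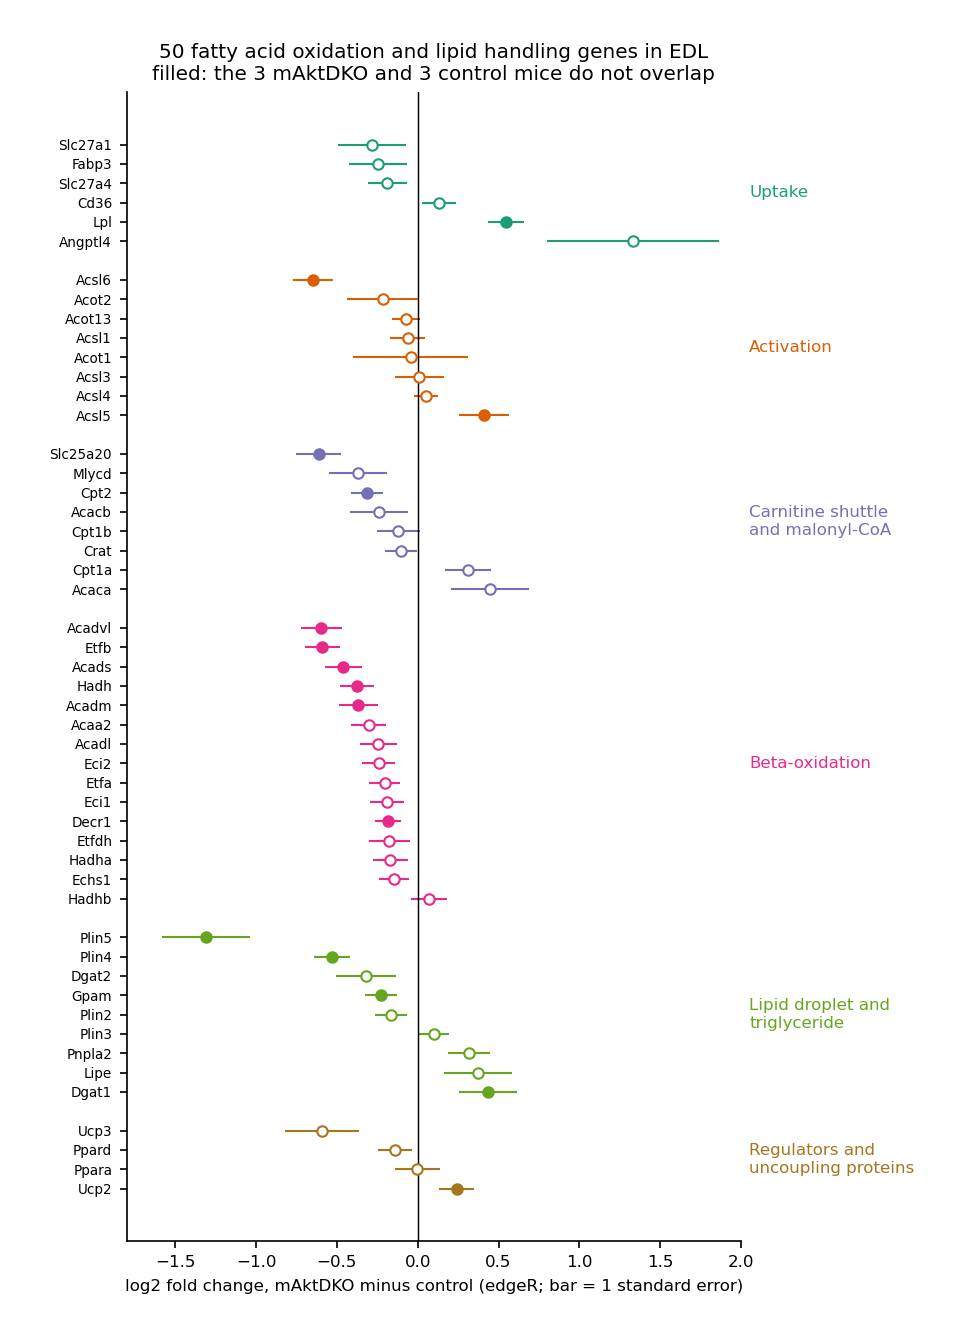
Each point is the log2 fold change of 1 gene (mAktDKO minus control, horizontal axis, edgeR) with a bar of 1 standard error, ordered within 6 roles, and filled points are genes whose 3 mAktDKO and 3 control mice do not overlap. The beta-oxidation genes lie left of 0 except Hadhb at 0.069, Plin5 lies farthest left at -1.31 and Angptl4 farthest right at 1.33 with a wide bar.

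Promoter sequences are shown for 4 of the lower genes that DESeq2 called, so that the start regions of genes that were lower together can be set side by side. Windows of 300 bases, from 250 bases before to 50 bases after the start site, were taken from RefSeq (GRCm38.p6) and matched 41 of the 50 genes, with 49 windows since some genes have several. The 4 motifs of receptors and factors that act on genes of lipid metabolism that were searched on both strands were the nuclear receptor core site AGGTCA, the direct repeat AGGTCANAGGTCA with 1 base between, the extended core site TCAAGGTCA, which holds AGGTCA within it, and the forkhead site GTAAACA. In the sequences, printed 5′ to 3′ along the strand of the gene, capitals mark AGGTCA, its reverse complement TGACCT or the extended form of either.
Etfb (chr7:43443822-43444121, plus strand, no match): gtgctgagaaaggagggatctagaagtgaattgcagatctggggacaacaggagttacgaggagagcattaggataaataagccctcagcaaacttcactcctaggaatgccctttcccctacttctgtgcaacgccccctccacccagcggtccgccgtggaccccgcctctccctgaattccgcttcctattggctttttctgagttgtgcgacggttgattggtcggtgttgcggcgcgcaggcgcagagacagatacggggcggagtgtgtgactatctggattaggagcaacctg
Acadvl (chr11:70015379-70015678, minus strand, 1 match): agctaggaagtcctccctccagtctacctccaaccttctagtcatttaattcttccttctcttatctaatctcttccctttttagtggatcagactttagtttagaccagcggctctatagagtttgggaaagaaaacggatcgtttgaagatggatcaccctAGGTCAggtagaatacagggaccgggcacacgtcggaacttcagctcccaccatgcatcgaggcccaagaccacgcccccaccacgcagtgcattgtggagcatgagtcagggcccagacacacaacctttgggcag
Plin5 (chr17:56117499-56117798, minus strand, 1 match): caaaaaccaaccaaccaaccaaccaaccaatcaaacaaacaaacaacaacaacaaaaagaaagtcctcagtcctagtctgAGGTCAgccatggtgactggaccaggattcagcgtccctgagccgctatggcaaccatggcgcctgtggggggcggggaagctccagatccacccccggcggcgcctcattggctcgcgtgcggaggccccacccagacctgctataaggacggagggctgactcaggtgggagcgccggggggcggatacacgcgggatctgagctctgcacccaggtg
Acsl6 (chr11:54303574-54303873, plus strand, 2 matches): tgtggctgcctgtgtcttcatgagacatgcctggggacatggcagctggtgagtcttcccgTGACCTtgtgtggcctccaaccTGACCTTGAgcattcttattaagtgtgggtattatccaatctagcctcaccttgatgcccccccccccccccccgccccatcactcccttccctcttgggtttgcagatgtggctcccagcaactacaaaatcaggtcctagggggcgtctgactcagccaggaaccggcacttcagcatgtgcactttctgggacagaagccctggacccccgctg
The core site began 87 bases before the start of Acadvl, 170 bases before that of Plin5, and 189 and 167 bases before that of Acsl6, where the nearer match was also the extended form. Plin5 has a second window with a match 13 bases after its start, and Acsl6 has 2 further windows without a match, which are not printed. The core site was in 12 of the 49 windows (24.5%), which belonged to 11 genes, and in 16.3% of all 32851 RefSeq windows of this length. The extended form was in 1 window (2.04%), that of Acsl6, and in 0.423% of all windows. The forkhead site was in 1 window, that of Lipe, and in 3.65% of all windows. The direct repeat was in none of the 49 windows and in 0.0396% of all windows. The windows of Slc25a20, Plin4 and Etfb held none of these letters. A match is a run of letters and was not tested as a binding site.

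The uptake genes did not share a direction. Lpl, the lipoprotein lipase that frees fatty acids from circulating triglyceride (chromosome 8, 68880491 to 68907448, GRCm38, plus strand), was higher. It was at 885, 999 and 881 CPM in the mAktDKO mice and at 722, 615 and 556 CPM in the control mice. Every mAktDKO mouse lay above every control mouse, and the log2 fold change was 0.55 ± 0.11 with an adjusted p of 0.0540. Angptl4, a secreted inhibitor of lipoprotein lipase, was at 5.96, 10.8 and 1.65 CPM against 2.45, 2.26 and 2.65 CPM. Its log2 fold change of 1.33 ± 0.53 had an adjusted p of 0.171, and mAktDKO 3 lay below all control mice while the other two lay above them. Without mAktDKO 2 the log2 fold change of Angptl4 was 0.64. Fabp3, the fatty acid binding protein of heart and muscle, was at 99.04, 98.8 and 119 CPM against 134, 153 and 87.8 CPM, and control 4 lay below every mAktDKO mouse. Slc27a4, a fatty acid transport protein, was at 12.6, 12.7 and 11.5 CPM against 13.5, 12.5 and 15.9 CPM, and the groups overlapped. Cd36, the fatty acid translocase of the cell surface, was at 347 ± 39 CPM (SD, n = 3) against 317 ± 25 CPM. Slc27a1, another transport protein, was at 47.3 ± 4.3 CPM against 57.4 ± 20.6 CPM, and its lower mean rested on control 2 at 81.0 CPM, without which the log2 fold change was 0.050.

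Markers of other cells were examined beside these genes, because adipocytes and vessels also express Lpl, Angptl4 and Cd36. All 7 adipocyte markers had higher means in the mAktDKO group, none was at 0 in any mouse, and 0 passed the threshold, while 6 of the 7 (85.7%) were higher at an unadjusted p under 0.05, where 11.4% of all genes were. Summed, they reached 291, 331 and 185 CPM in mAktDKO 1, 2 and 3 and 169, 156 and 215 CPM in control 2, 3 and 4. The largest part of this sum in every mouse was Fabp4, at 151, 166 and 130 CPM against 114, 114 and 123 CPM. Adipoq, the adipocyte hormone adiponectin, was at 16.9, 21.9 and 5.69 CPM against 5.94, 4.60 and 9.53 CPM, so that mAktDKO 3 lay within the range of the control mice, as it did for the sum. Lpl was at 881 CPM in mAktDKO 3 and 885 CPM in mAktDKO 1. Angptl4 was highest in mAktDKO 2 and lowest in mAktDKO 3, as the adipocyte sum was among these mice. The 8 endothelial markers summed to 500.3 to 561 CPM against 429 to 527 CPM, with 6 of 8 higher in mean and 2 (25%) higher at an unadjusted p under 0.05, and Gpihbp1, which anchors lipoprotein lipase on capillaries, was at 9.89, 11.1 and 10.9 CPM against 8.95, 11.96 and 10.8 CPM. The 5 macrophage markers (85.9 to 102 CPM against 65.7 to 89.3 CPM) and the 5 fibroblast markers (18280 to 21740 CPM against 7284 to 18400 CPM) were all higher in mean. In either list 0 passed the threshold and 2 of 5 (40%) were higher at an unadjusted p under 0.05, beside 11.4% of all genes. Also in each, 2 of 5 (40%) were higher without overlap, beside 14.6% of all genes. DESeq2 called 1 fibroblast marker higher at an adjusted p under 0.01, beside 0.936% of the 9616 genes for which it gave an adjusted p. Of the 3 markers of mature red cells, whose sums overlapped at 37.5 to 163 CPM and 56.8 to 121 CPM, Hbb-bs was at 23.5, 9.22 and 10.01 CPM in the mAktDKO mice and listed at 0 in all control mice, with an adjusted p of 0.018. Reads of the beta-globin genes can be divided among similar copies, and whether this value reflects that division or a difference in globin alleles between the groups was not tested. The part of other cells in the results for Angptl4, Lipe and the other genes was not tested.

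Of the enzymes that activate fatty acids, Acsl6 was lower and Acsl5 higher in mean without overlap, and neither passed the threshold. Acsl6, an acyl-CoA synthetase (chromosome 11, 54303798 to 54364756, GRCm38, plus strand), was at 13.8, 12.9 and 13.5 CPM in the mAktDKO mice and at 25.0, 19.0 and 19.1 CPM in the control mice. It was lower in every mAktDKO mouse, with a log2 fold change of -0.65 ± 0.13 and an adjusted p of 0.0506. Acsl5, a related synthetase, was at 11.7, 14.6 and 11.9 CPM against 7.76, 10.9 and 10.1 CPM, and was higher in every mAktDKO mouse, with a log2 fold change of 0.41 ± 0.15 and an adjusted p of 0.154. Acsl1, the most abundant synthetase per length here, was at 260.1, 271 and 247 CPM against 302, 281 and 229.8 CPM, a log2 fold change of -0.063 ± 0.109. Acsl4 and Acsl3 had log2 fold changes of 0.050 and 0.010, and both pairs of groups overlapped.

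The acyl-CoA thioesterases release the fatty acid from coenzyme A again. Acot2, the mitochondrial enzyme, was at 10.3, 9.47 and 9.53 CPM against 15.38, 11.2 and 7.49 CPM, so that the mAktDKO mice lay within the range of the control mice. Acot1, its cytosolic relative, was at 0.634, 0.959 and 1.10 CPM against 0.839, 1.17 and 0.756 CPM, and Acot13 was at 26.1, 25.7 and 26.3 CPM against 28.7, 28.4 and 24.9 CPM. Acot1 and Acot2 are neighbouring relatives, and 36.7% of the 37-base stretches of Acot1, most of them in Acot3, and 33.4% of those of Acot2, most of them in Acot1, occur in other genes of the table, so that the division of reads among these genes is uncertain. Acot1 and Acot2 counted together had a log2 fold change of -0.20 with an adjusted p of 0.569, a sum that leaves out reads shared with Acot3. For 47 of the 50 genes the share in genes of the table was under 5%. Stretches of Cpt1b (80.8%), Hadhb (60.6%), Etfb (60.6%), Acaca (51.9%) and Fabp3 (33.9%) also occur in annotated genes without a row in the table, such as Gm45233, which overlaps Etfb on the same strand, and whether these took reads from them was not tested.

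In the carnitine shuttle, Slc25a20 and Cpt2 were lower in mean without overlap, and neither passed the threshold. Slc25a20, the carnitine-acylcarnitine translocase (chromosome 9, 108662088 to 108684641, GRCm38, plus strand), was at 31.9, 34.7 and 34.3 CPM in the mAktDKO mice and at 61.2, 52.5 and 40.5 CPM in the control mice. The groups did not overlap, and the log2 fold change was -0.61 ± 0.14 with an adjusted p of 0.0598. Cpt2, the carnitine palmitoyltransferase of the inner membrane, was at 41.7, 40.7 and 45.4 CPM against 57.1, 55.5 and 46.4 CPM, also without overlap, with a log2 fold change of -0.32 ± 0.10 and an adjusted p of 0.111. Cpt1b, the muscle form of the outer-membrane transferase, was at 227, 229.6 and 263 CPM against 316, 247 and 219.7 CPM, a log2 fold change of -0.12 ± 0.13 that became 0.040 without control 2. Cpt1a, the liver form, was at 15.3, 17.0 and 12.7 CPM against 10.5, 12.9 and 12.9 CPM, with a log2 fold change of 0.31 ± 0.14 and an adjusted p of 0.211. Crat, the carnitine acetyltransferase, had a log2 fold change of -0.10 ± 0.10, which was -0.0096 without control 2.

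The genes that make and remove malonyl-CoA were not separated beyond the spread between mice. Acacb, the muscle form of acetyl-CoA carboxylase that lies at the mitochondrial surface, was at 341, 329 and 372 CPM against 549.5, 353 and 328 CPM. Its log2 fold change of -0.24 ± 0.18 became 0.028 without control 2. Acaca, the cytosolic form that serves fatty acid synthesis, was at 92.9, 145 and 96.1 CPM against 78.7, 56.4 and 109.9 CPM, with a log2 fold change of 0.45 ± 0.24 that ran from 0.21 without mAktDKO 2 to 0.72 without control 4. Mlycd, the decarboxylase that breaks malonyl-CoA down, was at 47.0, 39.8 and 41.6 CPM against 72.9, 51.2 and 41.5 CPM, and control 4 lay among the mAktDKO mice. The 8 genes of the shuttle and of malonyl-CoA had a median log2 fold change of -0.18, with 6 lower, and without control 2 this median was 0.0093.

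Beta-oxidation was the role with the largest share of lower genes, 14 of 15. Their median log2 fold change was -0.24, 7 of 15 (46.7%) were lower at an unadjusted p under 0.05, and 6 of 15 (40%) were lower without overlap, beside the 13.1% and 16.6% of all genes given above. Under scaling by library totals, which moved the median of all genes to 0.16, the median of the 15 was -0.10 with 14 lower, and 4 were lower at an unadjusted p under 0.05. With a mouse left out this count ran from 4 (without mAktDKO 2) to 12 (without control 4). At the same p, in both directions, the whole table held 1871 of 13034 genes without mAktDKO 2 and 3386 of 13127 without control 4. It held 3616 of 12892 under library totals and 3164 of 12892 in the main fit. The 35 genes of the other roles had a median of -0.10 and 22 of them were lower. Etfb, the beta subunit of the flavoprotein that collects electrons from the acyl-CoA dehydrogenases (chromosome 7, 43444083 to 43457800, GRCm38, plus strand), was at 86.1, 78.9 and 86.5 CPM in the mAktDKO mice and at 144, 125 and 109 CPM in the control mice. The highest mAktDKO mouse lay well under the lowest control mouse, and the log2 fold change was -0.59 ± 0.11 with an adjusted p of 0.0474. This adjusted p was 0.0443 without control 2 and 0.0354 without control 4, and it was 0.0942 without control 3 and 0.115 to 0.234 when a mAktDKO mouse was left out.

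The 4 acyl-CoA dehydrogenases of the list take the first step on chains of decreasing length, and all 4 were lower in mean. Acadvl, for very long chains (chromosome 11, 70010183 to 70015411, GRCm38, minus strand), was at 216, 198 and 226.5 CPM against 379, 323 and 267 CPM. It did not overlap between the groups, with a log2 fold change of -0.60 ± 0.13 and an adjusted p of 0.0557. Acads, for short chains, was at 41.8, 36.7 and 36.7 CPM against 60.7, 51.2 and 46.5 CPM, also without overlap, with a log2 fold change of -0.46 ± 0.11 and an adjusted p of 0.0691. Acadm, for medium chains, was at 201, 195.5 and 219 CPM against 311, 261 and 222 CPM, where mAktDKO 3 and control 4 nearly met, with a log2 fold change of -0.37 ± 0.12 and an adjusted p of 0.123. Acadl, for long chains, was at 153, 167 and 189 CPM against 224, 204 and 175 CPM, and the groups overlapped.

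Among the later steps, the free-standing dehydrogenase was lower without overlap and the trifunctional protein was not. Hadh, the short-chain hydroxyacyl-CoA dehydrogenase, was at 104, 99.6 and 107 CPM against 144, 144 and 114 CPM, with a log2 fold change of -0.38 ± 0.10 and an adjusted p of 0.0853. Hadha and Hadhb, the alpha and beta subunits of the trifunctional protein that handles long chains, were at 250.1, 281 and 295 CPM against 345, 309.6 and 275 CPM and at 250.3, 283 and 315 CPM against 294, 276 and 239 CPM. Hadhb was the single beta-oxidation gene with a higher mean, and it turned lower, at -0.030, when mAktDKO 3 was left out. Etfa, the partner subunit of Etfb, was at 134.5, 129.5 and 149 CPM against 176, 156 and 144 CPM, with a log2 fold change of -0.20 ± 0.10. Decr1, the dienoyl-CoA reductase for unsaturated chains, was lower without overlap at -0.18 ± 0.08, with an adjusted p of 0.209. The thiolase Acaa2, the isomerases Eci1 and Eci2, the hydratase Echs1 and Etfdh, which passes the electrons on to ubiquinone, had log2 fold changes between -0.30 and -0.15, adjusted p-values of 0.142 to 0.409, and groups that overlapped. Without control 2 the values of Echs1, Etfdh and Eci1 were -0.050, -0.051 and -0.074, that of Etfa was -0.12 and that of Acadm was -0.24.

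**Figure D2:**
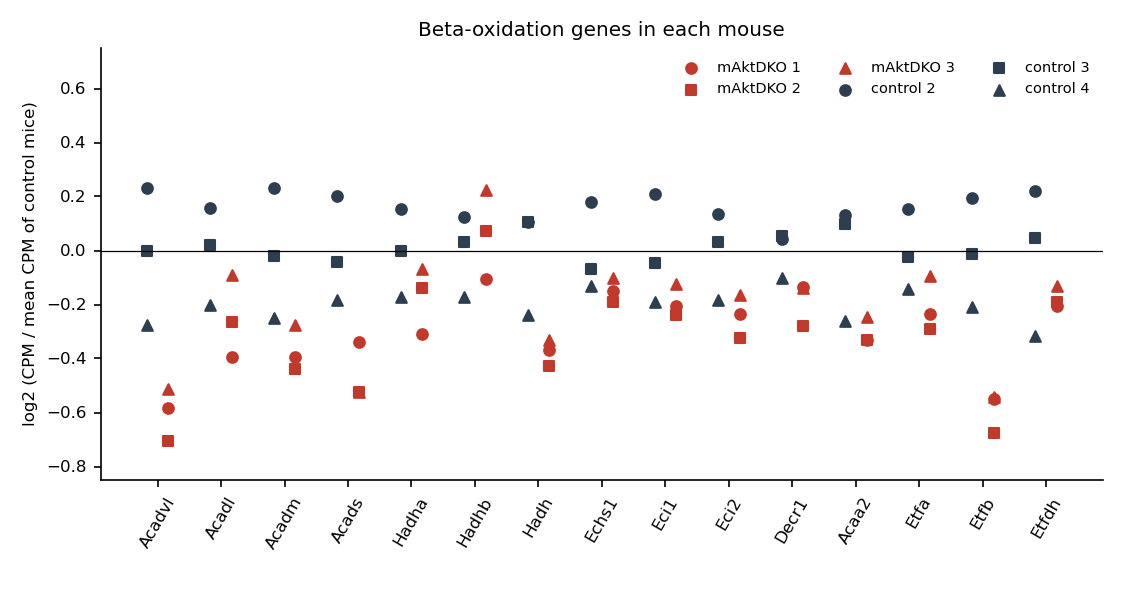
Each point is 1 mouse, placed at the log2 ratio of its CPM to the mean CPM of the 3 control mice (vertical axis) for each of the 15 beta-oxidation genes (horizontal axis). The mAktDKO mice lie below 0 in 14 genes, control 2 is the highest control mouse in 14 and control 4 the lowest in 15, often beside the mAktDKO mice.

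The control mice were themselves spread in these genes, in the same order almost throughout. Averaged over the 15 genes, the log2 CPM stood at -0.29, -0.32 and -0.20 in mAktDKO 1, 2 and 3 and at 0.17, 0.020 and -0.19 in control 2, 3 and 4, relative to the mean of the control mice. So the groups did not overlap, but control 4 lay next to mAktDKO 3. The median ratio of control 2 to control 4 over the 15 genes was 1.28, and that of the control mean to the mAktDKO mean was 1.18. Without control 2 the median log2 fold change of the 15 genes was -0.16 with 14 lower, and without control 4 it was -0.33 with 15 lower. Without control 4 an adjusted p under 0.05 was reached by 8 of the 50 genes, Etfb, Acadvl, Acads, Hadh, Acaa2, Acsl6, Slc25a20 and Plin5, beside 388 of all 13127 genes tested in that fit (2.96%). Without control 2 it was reached by 3 of the 50, Etfb, Lpl and Ucp3, beside 145 of 13138 genes (1.1%). Without mAktDKO 1, 2 or 3 or control 3 it was reached by 0 of the 50, and by 4, 3, 5 and 26 of all genes.

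The 9 markers of slow and oxidative fibres summed to 4955, 5549 and 5624 CPM in the mAktDKO mice and to 12630, 7107 and 6987 CPM in control 2, 3 and 4, with 3 of 9 lower and 6 higher in the mAktDKO group and none at 0. Mb, the oxygen store myoglobin, was at 811, 769 and 895 CPM against 2821, 1783 and 1756 CPM, with a log2 fold change of -1.36 ± 0.18 and an adjusted p of 0.0206. Myh2, the myosin of oxidative fast fibres, was at 3019, 3463 and 4049 CPM against 9177, 4440 and 4624 CPM, without overlap and with an adjusted p of 0.125. Most of the sum in every mouse came from Myh2 and Mb. Over the 9 markers the median log2 fold change was 0.36. At an unadjusted p under 0.05 in edgeR, 2 (22.2%) were lower and 2 (22.2%) higher, beside 13.1% and 11.4% of all tested genes. Myh7, the slow myosin, was at 525, 637 and 269 CPM against 168, 368 and 233 CPM. The groups overlapped in Myh7, with a log2 fold change of 0.90 ± 0.34 and an adjusted p of 0.152. Control 2 lay below all other mice in Myh7 and in the slow troponins Tnnt1, Tnni1 and Tnnc1. The part of fibre type in the beta-oxidation result was not tested.

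**Figure D3:**
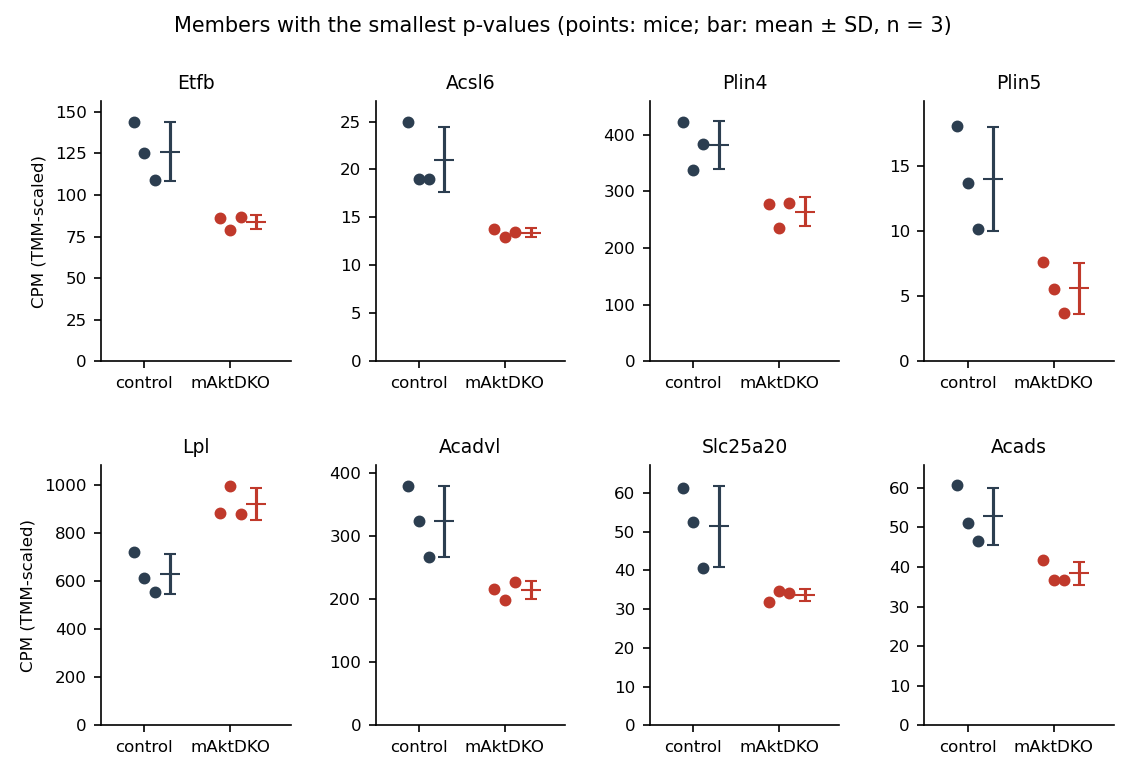
Each panel gives 1 of the 8 genes with the smallest p-values among the 50, with 1 point per mouse (vertical axis, CPM scaled by TMM, from 0) and the mean ± SD of 3 mice beside the points. In all 8 the groups do not overlap, which the choice by p-value favours, and Lpl is the 1 gene that is higher in the mAktDKO mice. Among all 50 genes, 12 are lower and 4 higher without overlap.

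Of the perilipins, the proteins of the lipid droplet surface, Plin4 and Plin5 were lower without overlap and Plin2 and Plin3 were not. Plin5, the perilipin that links droplets to mitochondria in oxidative tissue (chromosome 17, 56111601 to 56117596, GRCm38, minus strand), was at 7.61, 5.57 and 3.70 CPM in the mAktDKO mice and at 18.1, 13.71 and 10.1 CPM in the control mice. The groups did not overlap, and its log2 fold change of -1.31 ± 0.27 was the lowest among the 50 genes, with an adjusted p of 0.0539. Plin4, its neighbour on the same strand 1797 bases away, was at 278, 235 and 279.5 CPM against 422, 338 and 384 CPM, without overlap, with a log2 fold change of -0.53 ± 0.11 and an adjusted p of 0.0539. Plin2, the perilipin of most cell types, was at 25.7, 21.8 and 23.2 CPM against 25.2, 25.6 and 28.4 CPM, and Plin3, which lies 159879 bases from Plin5, had a log2 fold change of 0.099 ± 0.091 that was 0.043 without mAktDKO 3 and 0.16 without control 2. Gpam, the acyltransferase of the first step of triglyceride synthesis, was at 146, 151 and 153 CPM against 195, 176 and 154 CPM, lower without overlap, with a log2 fold change of -0.23 ± 0.10 (-0.15 without control 2) and an adjusted p of 0.187.

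The enzymes that close and open the triglyceride cycle were mixed. Dgat1, a diacylglycerol acyltransferase of the last step of synthesis, was at 6.34, 6.95 and 4.66 CPM against 4.41, 4.38 and 4.54 CPM, higher without overlap although mAktDKO 3 and control 4 nearly met, with an adjusted p of 0.180. Dgat2, the other such enzyme, was at 33.5, 29.9 and 23.4 CPM against 46.8, 30.2 and 31.6 CPM, and the groups overlapped. Pnpla2, the triglyceride lipase of droplets also called ATGL, was at 162, 179.5 and 189.7 CPM against 171, 134 and 120.4 CPM, with a log2 fold change of 0.32 ± 0.13 (0.48 without control 2 and 0.21 without control 4) and an adjusted p of 0.178. Lipe, the hormone-sensitive lipase, was at 22.8, 31.4 and 16.7 CPM against 19.7, 15.7 and 19.4 CPM, and mAktDKO 3 was again the lowest of its group, as for Angptl4 and the adipocyte sum. Of the 9 genes of this role 5 were lower and 4 higher, around a median log2 fold change of -0.16, which was -0.093 without control 2 and -0.026 under scaling by library totals.

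**Figure D4:**
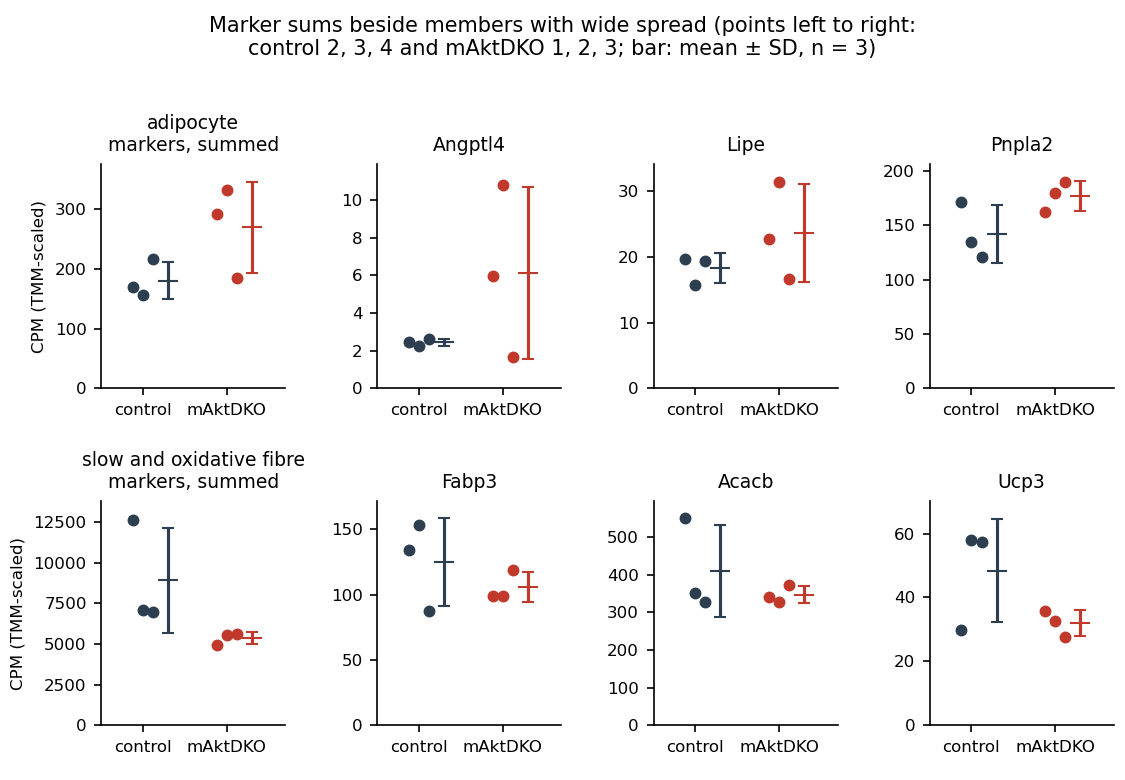
The left panels give the summed CPM of 7 adipocyte markers and of 9 markers of slow and oxidative fibres, and the other panels give single genes of wide spread, with 1 point per mouse (vertical axis from 0, CPM scaled by TMM) and the mean ± SD of 3 mice. Within the mAktDKO group, Angptl4, Lipe and the adipocyte sum are all highest in mAktDKO 2 and lowest in mAktDKO 3, and control 2 is far above the other mice in the fibre sum and in Acacb.

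The uncoupling proteins and the nuclear receptors formed the last group. Ucp3, a mitochondrial carrier of skeletal muscle induced by fatty acids, was at 35.9, 32.6 and 27.6 CPM in the mAktDKO mice and at 29.7, 58.0 and 57.2 CPM in control 2, 3 and 4. Control 2 lay among the mAktDKO mice, and the log2 fold change was -0.59 ± 0.23 with an adjusted p of 0.161. Ucp2, which lies 6904 bases from Ucp3 and is expressed in many cell types, was at 20.1, 22.5 and 19.9 CPM against 15.7, 18.5 and 18.8 CPM, higher without overlap, with a log2 fold change of 0.24 ± 0.11 and an adjusted p of 0.205. Ppara and Ppard are fatty acid receptors that switch on oxidation genes. Ppara was at 40.3, 30.8 and 46.8 CPM against 39.6, 38.6 and 39.8 CPM, a log2 fold change of -0.0022 ± 0.1374, and Ppard was at 27.3, 27.0 and 30.6 CPM against 35.1, 28.2 and 30.2 CPM, a log2 fold change of -0.14 ± 0.11 that was -0.047 without control 2.

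The balance between partner genes was compared within each mouse, which leaves the scaling between mice out. The log2 ratio of counts was tested for 12 pairs with an exact two-sided permutation test, which cannot go below p = 0.1 with 3 mice against 3, so no pair could pass 0.05. In 6 pairs the groups did not overlap, each with an exact p of 0.1 and an exact p adjusted over the 12 pairs of 0.2. Of all single genes tested, 16.6% were lower and 14.6% higher without overlap. The share of ratios without overlap was not computed over other gene pairs, so the count of 6 was not compared with a background. The ratio of Hadha to Hadhb was -0.001, -0.009 and -0.095 in the mAktDKO mice and 0.230, 0.167 and 0.200 in the control mice, a difference of -0.23. These are ratios of counts of transcripts of different length, so only the distance between the groups can be read from them. Per kilobase of exon, Hadhb was above Hadha in both groups. The ratio of Etfa to Etfb was 0.643, 0.714 and 0.778 against 0.287, 0.315 and 0.396, a difference of 0.38, so that Etfb was the lower of the pair by more.

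The genes Hadha and Hadhb lie head to head on opposite strands of chromosome 5. Their RefSeq starts are 273 bases apart, so that their promoter windows share 228 bases (chr5:30155003-30155230). The window of Hadhb is shown because the ratios of this pair did not overlap between the groups and the genes share a start region, and it held none of the searched motifs.
Hadhb (chr5:30155003-30155302, plus strand): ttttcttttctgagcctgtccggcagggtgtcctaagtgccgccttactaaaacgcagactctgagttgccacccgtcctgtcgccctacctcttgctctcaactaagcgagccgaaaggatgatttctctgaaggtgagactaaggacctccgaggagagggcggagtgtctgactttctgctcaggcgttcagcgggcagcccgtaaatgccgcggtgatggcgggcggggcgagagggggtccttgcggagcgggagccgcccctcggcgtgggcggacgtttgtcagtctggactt

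**Figure D5:**
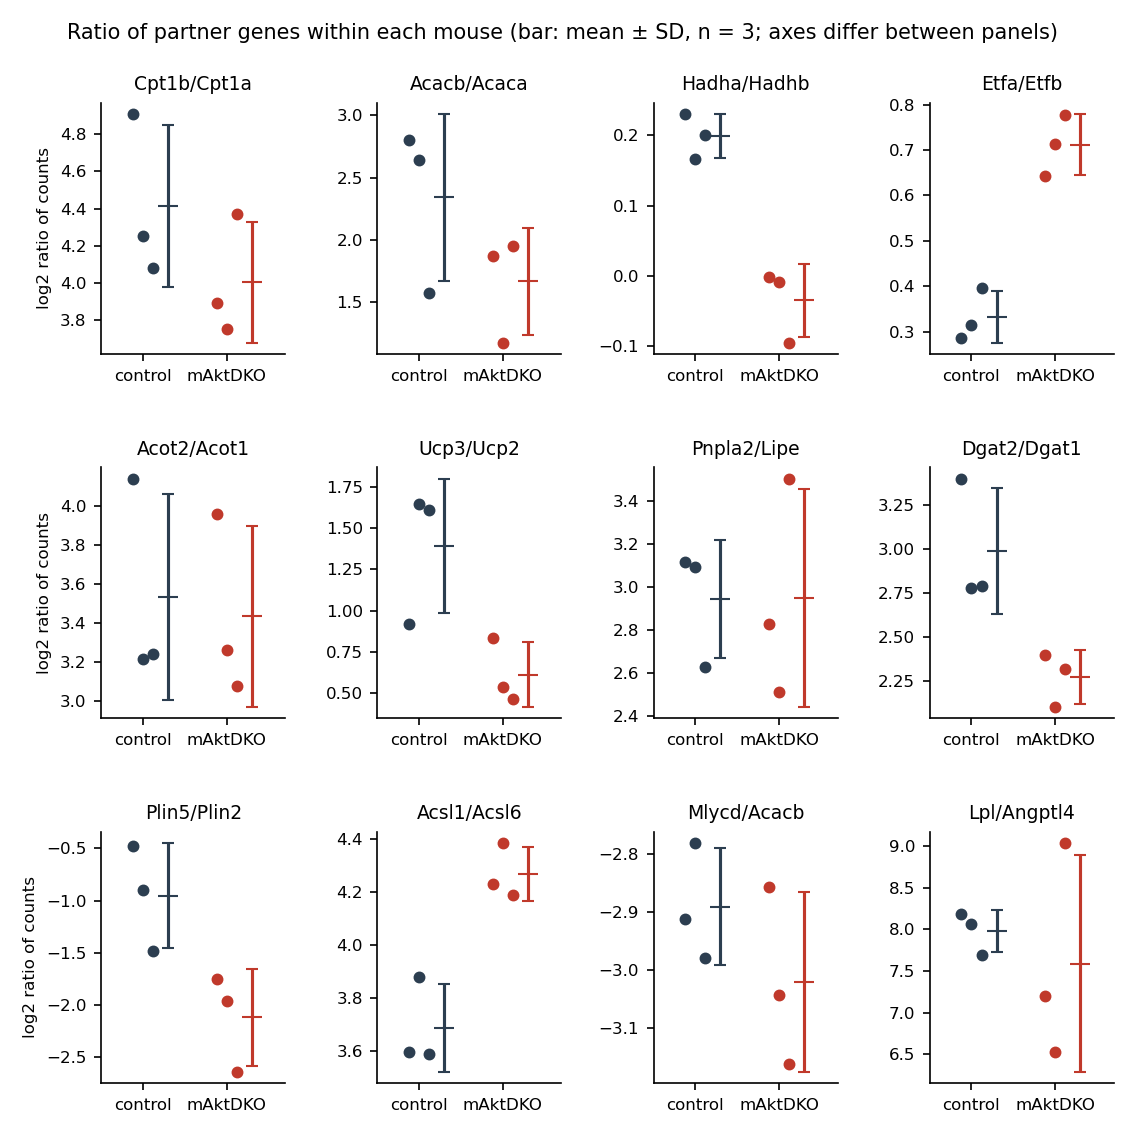
Each panel gives the log2 ratio of the counts of 2 partner genes within a mouse (vertical axis, different in each panel), with 1 point per mouse, control mice left and mAktDKO mice right, and the mean ± SD of 3 mice. The groups do not overlap in Hadha/Hadhb, Etfa/Etfb, Ucp3/Ucp2, Dgat2/Dgat1, Plin5/Plin2 and Acsl1/Acsl6, and they overlap in the other 6.

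The 4 further ratios without overlap are given as means. Ucp3 to Ucp2 was 0.61 ± 0.20 (SD, n = 3) in the mAktDKO mice and 1.39 ± 0.41 in the control mice, and Dgat2 to Dgat1 was 2.27 ± 0.15 against 2.99 ± 0.35. Plin5 to Plin2 was -2.12 ± 0.46 against -0.95 ± 0.50, a difference of -1.16 that was the largest of the 12. Acsl1 to Acsl6 was 4.27 ± 0.10 against 3.69 ± 0.17. The other 6 overlapped, among them Cpt1b to Cpt1a (difference -0.41, exact p = 0.3), Acacb to Acaca (difference -0.67, exact p = 0.3) and Mlycd to Acacb (difference -0.13, exact p = 0.3). With a mouse left out, the difference ran from -0.59 (mAktDKO 3) to -0.16 (control 2) for Cpt1b to Cpt1a, from -1.05 (control 4) to -0.43 (mAktDKO 2) for Acacb to Acaca and from -0.21 (mAktDKO 1) to -0.058 (mAktDKO 3) for Mlycd to Acacb. Lpl to Angptl4 differed by -0.39 (exact p = 0.6), Acot2 to Acot1 by -0.099 (exact p = 0.7) and Pnpla2 to Lipe by 0.003 (exact p = 1). With ranges this wide, these tests do not show that the balance was alike.

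Levels were compared between genes as CPM per kilobase of exon. In the control mice the order began with Lpl at 153 ± 20 CPM per kilobase (SD, n = 3), Fabp3 at 152 ± 41, Acadvl at 149 ± 26, Etfb at 141 ± 20, Hadhb at 129.6 ± 13.4 and Acadm at 129 ± 22, and these neighbours did not differ beyond their spread. In the mAktDKO mice Lpl came first at 224 ± 16, followed by Hadhb at 136 ± 16 and Fabp3 at 128 ± 14, while Acadvl at 98.5 ± 6.6 was sixth and Etfb at 93.9 ± 4.8 was eighth. Lpl stood apart from the second gene by more than the SDs in the mAktDKO mice and not in the control mice. Cpt1b, at 90.1 ± 17.1 in the control mice, was far above Cpt1a, at 2.81 ± 0.33, and Acacb, at 46.6 ± 13.8, was above Acaca, at 8.58 ± 2.82. Plin4 had the highest level of the 4 perilipins, at 65.98 ± 7.26 in the control mice, and Plin5 was the lowest, at 6.70 ± 1.92 in the control mice and 2.70 ± 0.94 in the mAktDKO mice. Angptl4 and Acot1 closed the order in the control mice at 0.741 ± 0.058 and 0.405 ± 0.096.

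Other genes of lipid metabolism were taken from a list of 69, of which 66 passed the filter on low counts and Slc27a2, Slc27a6 and Cidea did not. Of these 66, 39 were lower and 27 higher, the median log2 fold change stood at -0.082, and 16 (24.2%) were lower and 6 (9.09%) higher without overlap, beside 16.6% and 14.6% of all genes. At an unadjusted p under 0.05, 11 (16.7%) were lower and 10 (15.2%) higher, beside 13.1% and 11.4%. At an adjusted p under 0.05, 2 were lower (0.915% of all genes were) and 0 higher, and both are nuclear receptors. Rxrg, the retinoid X receptor gamma, a partner of the peroxisome proliferator-activated receptors, was at 24.9, 21.2 and 23.4 CPM in the mAktDKO mice and at 36.4, 33.4 and 34.0 CPM in the control mice, with a log2 fold change of -0.58 ± 0.09 and an adjusted p of 0.0394. Esrra, the estrogen-related receptor alpha, which acts on genes of oxidative metabolism, was at 53.1, 47.0 and 46.0 CPM against 86.2, 72.6 and 68.7 CPM, with a log2 fold change of -0.64 ± 0.11 and an adjusted p of 0.0396. The next smallest p-values belonged to Acaa1a, a peroxisomal thiolase, at 27.5, 22.04 and 25.3 CPM against 41.7, 37.4 and 33.4 CPM, and to Ppargc1b, a coactivator of mitochondrial genes, at 19.5, 17.4 and 19.8 CPM against 25.8, 26.6 and 23.7 CPM. Acsf2, an acyl-CoA synthetase family member, was higher at 7.10, 6.95 and 7.89 CPM against 4.68, 4.82 and 5.07 CPM. Of these last 3, Acaa1a had an adjusted p of 0.0506, Ppargc1b of 0.0598 and Acsf2 of 0.0616, and in none of them did the groups overlap. Gpat4, listed in the table under its older symbol Agpat6, completes the 6 with the smallest p, at 48.9, 47.5 and 48.1 CPM against 59.6, 56.2 and 60.5 CPM, with a log2 fold change of -0.29 ± 0.07 and an adjusted p of 0.0752.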

How the data were processed

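RNA of EDL from 3 mAktDKO and 3 control mice was sequenced by the authors from rRNA-depleted, directional libraries (paired ends of 37 bp). Per the labels and the submitters' processing notes, reads were aligned to mm10 with STAR 2.6.1b and counted with RSEM 1.3.1. The annotation and the strand setting of the counting are not given in the sources used here. The values the authors deposited are RSEM's estimated counts (expected counts), of which 3.36% to 4.09% in a mouse were not whole. RSEM divides reads that fit several genes, so near-identical genes can exchange counts, and exons on the opposite strand overlap those of Acadvl, Acsl5, Acsl6, Plin4, Hadha, Crat, Eci2, Fabp3, Lipe and Ucp2, and exons of another gene on the same strand those of Etfb, Cpt1b and Acsl3. The control columns are numbered differently from the labelled control samples and stand for the group only.

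The estimated counts were rounded and filtered by filterByExpr at a minimum count of 10. After TMM scaling, 12892 genes entered the quasi-likelihood test of edgeR 4.0.16 (R 4.3.3), with Benjamini-Hochberg adjustment and calls at an adjusted p under 0.01. The standard error is the log2 fold change divided by the square root of F. Averages over genes of log2 CPM use a prior count of 2, and ratios of partner genes add 0.5 to each count. Exon lengths, coordinates and 37-base stretches come from GENCODE annotation of GRCm38 (mm10). Total counts of 13738795 to 15445523 per mouse put the floor of 3 counts at 0.194 to 0.218 CPM, for counting error only. Any 2 mice differed by a chi-square per degree of freedom of at least 7.57, so none was a copy. Control 2 stood apart over the whole library, at 27.7 from control 3 and 26.9 from control 4, which differed from each other by 10.8. From the mAktDKO mice, control 2 differed by 51.4 to 69.8. On simulated counts for this comparison (12892 genes, 200 changed 2-fold), edgeR recovered 179 (89.5%) with 6 false calls and DESeq2 1.42.0 recovered 185 (92.5%) with 8. The 200 were drawn from genes of higher mean count, and no outlying mouse was simulated. Most of the 50 genes changed by much less than 2-fold (median log2 fold change -0.18), so these shares do not give the recovery for them.

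Values in every mouse are given for the 4 genes with the smallest p in each role, genes past an adjusted p of 0.05 and genes of partner pairs, and, of the other pathway genes, those past 0.05 and the 6 with the smallest p. The 50 genes, the marker lists, the 12 pairs and the list of 69 were chosen with earlier results of these data known. The alternatives were 3 other scalings, no filter or a stricter filter (10 counts in every mouse), DESeq2, a threshold of 0.05, a pseudocount of 1, Acot1 and Acot2 as 1 gene, and leaving out each mouse.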

Additional observations from a re-analysis of the deposited data

How the results depend on the processing

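No paired analysis was possible because the labels tie no mAktDKO mouse to a control mouse and the control columns do not carry the numbers of the labelled samples. Of the 50 genes, 38 kept their direction in every setting and 12 did not. The whole table held 152 called genes at an adjusted p of 0.05, 32 without a filter, 341 with DESeq2 and 0 to 8 with a mouse left out, where the main count was 3. Of the 50 genes, 1 was called at 0.05, 7 with DESeq2 and 0 with any mouse left out, and DESeq2's adjusted p was 0.000149 to 0.0042 for these 7. Their DESeq2 log2 fold changes were 0.54 (Lpl), -0.66 (Acsl6), -0.62 (Slc25a20), -0.61 (Acadvl), -0.60 (Etfb), -0.54 (Plin4) and -1.32 (Plin5). At 0.05, 7 of the 50 were called without a filter (381 of all 17360 genes), 6 with 10 counts in every mouse (264 of 12125) and 11 with DESeq2 (786 of 9616). Scaling by library totals moved the median of all genes to 0.16, and with it the medians of the 50 genes to -0.041, of activation to 0.085, of the carnitine shuttle to -0.040, of beta-oxidation to -0.10, of regulators to 0.063, of uptake to 0.11 and of the droplet genes to -0.026. It also turned Acsl1 (0.079), Acot1 (0.091), Acot13 (0.067), Cpt1b (0.018), Crat (0.035) and Ppara (0.13) higher, and Ppara was at 0.0025 with upper-quartile scaling and with the stricter filter. With a mouse left out, the median of the 50 genes ran from -0.24 to -0.079, of activation from -0.15 to -0.0083, of the carnitine shuttle from -0.31 to 0.0093 and of regulators from -0.19 to 0.020. The genes that changed direction with a mouse left out ran from -0.45 to 0.050 (Slc27a1), -0.17 to 0.021 (Acsl1), -0.090 to 0.14 (Acsl3), -0.0001 to 0.076 (Acsl4), -0.22 to 0.16 (Acot1), -0.44 to 0.066 (Acot2), -0.23 to 0.040 (Cpt1b), -0.38 to 0.028 (Acacb), -0.030 to 0.15 (Hadhb) and -0.16 to 0.15 (Ppara). Differences of log2 ratios ran from -0.36 to 0.20 (Acot2 to Acot1), -0.28 to 0.22 (Pnpla2 to Lipe) and -1.11 to 0.14 (Lpl to Angptl4). Why these values moved was not tested. With a mouse left out 1 group holds 2 mice. The largest standard errors among the 50 genes were 0.53 (Angptl4), 0.36 (Acot1) and 0.27 (Plin5).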

Other observations

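Among the other genes of lipid metabolism, Fabp5, a fatty acid binding protein of many cell types, was at 13.2, 13.4 and 11.3 CPM in the mAktDKO mice and at 6.71, 9.41 and 9.22 CPM in the control mice, with an adjusted p of 0.0761. Pdk4, the kinase that holds back pyruvate oxidation and is induced by fatty acids, was at 433, 363 and 204 CPM against 272, 422 and 355 CPM, and the groups overlapped. Ppargc1a, the coactivator related to Ppargc1b, was at 82.0, 54.8 and 89.4 CPM against 59.3, 68.1 and 64.0 CPM, with a log2 fold change of 0.24 ± 0.16 where that of Ppargc1b was -0.43 ± 0.10. Fabp5, Pdk4 and Ppargc1a were chosen after their values were seen.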
